A study of Mus musculus with 8 samples.

Results

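The TGF-beta family ligands and receptors described here are 9 genes: the ligands Tgfb1, Tgfb2, Tgfb3, Inhba, Bmp2 and Gdf15 and the receptors Tgfbr1, Tgfbr2 and Bmpr1a. They were found on the array through its annotation, with synonyms accepted and with a probe set (the group of probes that reports 1 transcript) used only where the annotation names 1 gene for it. This gave 18 of the 22690 probe sets, for 8 of the 9 genes. Gdf15 was named by no probe set in the annotation used and was not analysed here.

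The RNA came from CD45+/Sca1+ cells of C57BL/6 mice, 6 to 8 weeks old. CD45 marks cells of the blood lineage, and Sca1 is found in mice on stem cells and progenitors but also on part of the mature cells. It was read on 8 Affymetrix Mouse430A arrays in 4 groups of 2, with no genetic change in any group. The groups are cells of bone marrow, cells of uninjured muscle, cells of muscle injured with cardiotoxin (a cobra venom protein that kills muscle fibres) in untransplanted mice, and cells of cardiotoxin-injured muscle in bone marrow transplanted mice. The third group is called injured muscle and the last transplanted injured muscle. The sources used here give neither the time after injury nor the origin of the sorted cells, donor or host. Nothing says that the 2 arrays of a group come from separate animals, so a p-value here weighs only the spread of these arrays, which may be technical. There were 6 comparisons, each pair of groups once.

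Ligands of this family are secreted dimers. TGF-beta 1, 2 and 3 leave the cell bound to a propeptide that keeps them latent until an integrin, a protease or a matrix protein frees them. A ligand dimer brings type I and type II receptors together, the type II kinase phosphorylates the type I kinase, and the type I kinase phosphorylates Smad proteins that enter the nucleus with Smad4. Tgfbr2 and Tgfbr1 are the type II and type I receptors of the TGF-betas, and Bmpr1a is a type I receptor of the bone morphogenetic proteins such as the product of Bmp2. In injured muscle the family is known for its part in matrix deposition, in holding back myogenic differentiation and in the behaviour of macrophages.

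The upstream sequences of 3 members that form 1 signalling unit, a ligand with its type I and type II receptors, are printed to set the letters before their starts beside array patterns that differ. Each is the 250 bases before the transcript start in RefSeq, assembly GRCm38.p6. The build of the array's own design is not given in the sources used here. Of the 8 measured members 6 were matched in the promoter table, and Tgfb3 and Bmp2 are named only. Capitals mark matches, on either strand, of the letters GGGCGG (a GC box of the Sp1 type) or CAGAC (a Smad-binding motif), which do not overlap in these windows.

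Tgfb1, chr7:25686752-25687001, plus strand: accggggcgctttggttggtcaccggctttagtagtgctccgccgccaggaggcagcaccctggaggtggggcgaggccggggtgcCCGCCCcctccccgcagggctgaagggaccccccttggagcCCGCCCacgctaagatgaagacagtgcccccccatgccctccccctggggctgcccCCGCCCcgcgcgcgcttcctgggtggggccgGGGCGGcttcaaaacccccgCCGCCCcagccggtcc
Tgfbr1, chr4:47352972-47353221, plus strand: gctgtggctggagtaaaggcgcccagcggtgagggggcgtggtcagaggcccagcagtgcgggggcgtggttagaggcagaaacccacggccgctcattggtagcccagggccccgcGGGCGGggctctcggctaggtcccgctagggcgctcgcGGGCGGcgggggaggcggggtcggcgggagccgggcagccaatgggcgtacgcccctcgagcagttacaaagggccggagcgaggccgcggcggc
Tgfbr2, chr9:116175364-116175613, minus strand: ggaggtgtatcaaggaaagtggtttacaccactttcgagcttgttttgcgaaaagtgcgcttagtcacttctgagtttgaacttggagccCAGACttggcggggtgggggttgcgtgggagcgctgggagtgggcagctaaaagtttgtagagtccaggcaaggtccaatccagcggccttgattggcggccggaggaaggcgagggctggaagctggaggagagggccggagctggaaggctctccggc

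The Tgfb1 window was 75.2% G and C and held 5 matches of GGGCGG and 0 of CAGAC. The printed Tgfbr1 window was 74.8% G and C and held 2 matches of GGGCGG and 0 of CAGAC. The table has a window for another Tgfbr1 start, chr4:47385966-47386215, not printed, with 52.8% G and C, 0 matches of GGGCGG and 1 of CAGAC. The Tgfbr2 window was 58.4% G and C and held 0 matches of GGGCGG and 1 of CAGAC. Of 32536 windows of the same length, 33% held GGGCGG and 42.2% held CAGAC. The letters TGANTCA, the AP-1 motif, were in 6.73% of all windows and in none of the printed ones. A match is a description of letters and was not tested as a binding site. The genes themselves lie at chr7:25687002-25705077 (Tgfb1), chr4:47353222-47414926 (Tgfbr1) and chr9:116087695-116175363 (Tgfbr2).

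Array medians lay between 56.3 and 75.7 intensity units. The marrow and uninjured arrays differed from the injured arrays in the arrays' RNA controls: the ratio of the 3' to the 5' probe set of Gapdh was 24.4 and 10.7 in marrow, was 46.9 and 13.6 for uninjured muscle, and lay at 0.808 to 0.882 for all injured samples. For beta-actin the ratio was 5.68 to 19 on the first 4 arrays and 1.18 to 1.23 on the injured arrays. This split follows the injury, so for any marrow or uninjured group set against an injured one the state of the RNA and the condition cannot be told apart. Ptprc, which encodes CD45, lay between 4924 and 6996 on all 8 arrays and was called in no comparison. The annotation used names no probe set for Ly6a, which encodes Sca1.

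Marker lists of other cell types also differed between the groups. The summed intensity of 8 fibroblast markers was 145 to 310 in marrow (6 of 8 under 38.4 on both arrays), 9197 to 33188 in uninjured muscle, 23145 to 23393 in injured muscle and 4409 to 4712 in transplanted injured muscle. The 8 endothelial markers summed to 6531 to 10387 in uninjured muscle and to 756 to 838 in the other groups. Most of the uninjured sum was 1 gene, Fabp4, at 6521 and 4101. From uninjured to injured muscle 6 of the 8 were called lower and 0 higher. Pecam1, with means of 46.9 and 64.6 in these groups, was called in no comparison. The 8 muscle fibre markers summed to 111 to 156, 3375 to 5217, 981 to 1028 and 195 to 196 in marrow, uninjured, injured and transplanted injured muscle, and 6 of 8 were under 38.4 on both arrays in marrow and again in transplanted injured muscle. Over the 7 measured macrophage markers the sum was 8013 to 9643 in marrow and 20536 to 28227 in uninjured muscle, and on the 4 injured arrays 55963 to 68790. The 8 mast cell markers summed to 1080 to 1198, 7771 to 8237, 2974 to 3346 and 260 to 315 in the same order. The 8 neutrophil markers summed to 41371 to 51366 in marrow and 17123 to 30473 in uninjured muscle, and 386 to 711 with injury. A sort for CD45 is meant to remove fibroblasts, endothelial cells and muscle fibres.

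Of the 18 member probe sets 15 passed the filter on low values (at least 2 of 8 arrays at or above 38.4, the 40th percentile of all values) and were tested, 2 of them (both Tgfb2) through 1 group alone. The others, 1 of 3 for Tgfb2, 1 of 3 for Tgfbr2 and 1 of 5 for Bmpr1a, are given by value only. A probe set is said to rise or fall, or to be called, where limma's Benjamini-Hochberg adjusted p, over all 16289 probe sets tested in a comparison, was under 0.05. The 3 members with calls in the largest number of comparisons were Bmp2, Tgfbr2 and Tgfb3. Bmp2 was high in uninjured muscle, Tgfb3 was lower in marrow than on the injured arrays, and 2 probe sets of Tgfbr2 followed different patterns. Bmpr1a fell between uninjured and transplanted injured muscle. Both tested Tgfb2 probe sets reached 38.4 only on the 2 uninjured arrays, the group where they are high, so a lower value elsewhere was fixed by the filter and their tests support nothing. Tgfb1 had its highest intensities on the 4 injured arrays and a wide spread on the other 4. Tgfb1, Inhba and Tgfbr1 were called in no comparison. Here and below, fewer cells of a type and less RNA per cell cannot be told apart.

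Between uninjured muscle and marrow 2 of 15 probe sets rose and 0 fell, where 4.83% of all probe sets rose and 1.25% fell. Between injured and uninjured muscle 1 rose and 0 fell (12.1% and 13.9% of all). Between transplanted injured and uninjured muscle 0 rose and 6 fell (13.9% and 18.5% of all). With each array centred on its own median, the probe sets called in that comparison over the whole array were 3010 higher and 2095 lower, against 2268 and 3015 as scaled by the authors. Between transplanted injured and injured muscle limma called 0 of 15 in either direction (0.0246% and 0.227% of all), while an unadjusted p under 0.05 was reached by 0 in the upward and 2 in the downward direction. With quantile normalization the calls over the whole array in that comparison were 2 higher and 7 lower, against 4 and 37. They were 170 higher and 641 lower with array weights, and 369 and 756 with only the 4 arrays compared in the fit. Between injured muscle and marrow 3 rose and 0 fell (15.5% and 15.5% of all), and between transplanted injured muscle and marrow 2 rose and 0 fell (15.1% and 17.4% of all). The median log2 fold change of the 15 was 0.90, -0.46, -0.84, -0.39, 0.87 and 0.42 in the order of these 6 comparisons, and that of all probe sets -0.03, -0.14, -0.19, 0.00, -0.15 and -0.19. Of the 6 falls in transplanted injured against uninjured muscle 3 are probe sets of Bmpr1a and 1 is the Tgfb2 probe set that passed the filter only through the uninjured arrays. The Bmpr1a probe set 1451729_at would not have passed the filter without the uninjured arrays either.

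These counts are small and moved with single arrays. An array outside the 2 groups compared does not enter their difference, and leaving it out alters only the SE, the filter and the adjustment. In the fits named here with 1 array left out, the calls over the whole array moved in the same direction. The moves are therefore not particular to the members. For uninjured muscle against marrow the count was 4 without uninjured replicate 2 and 1 without either marrow array or any of the 4 injured arrays. For injured against uninjured muscle it was 3 without uninjured replicate 2, and 0 without either marrow array, either injured array or transplanted replicate 2. For transplanted injured against uninjured muscle it was 3 without transplanted replicate 1. For transplanted injured against injured muscle it was 1 without uninjured replicate 2. For injured muscle against marrow it was 1 without injured replicate 2. For transplanted injured muscle against marrow it was 0 without marrow replicate 1 or transplanted replicate 2, 1 without marrow replicate 2, either injured array or transplanted replicate 1, 4 without uninjured replicate 1 and 5 without uninjured replicate 2. Without both arrays with the highest Gapdh ratio (marrow replicate 1 and uninjured replicate 1, a choice made after seeing the data) the counts were 3, 4, 6, 2, 6 and 4 in the order above.

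**Figure D1:**
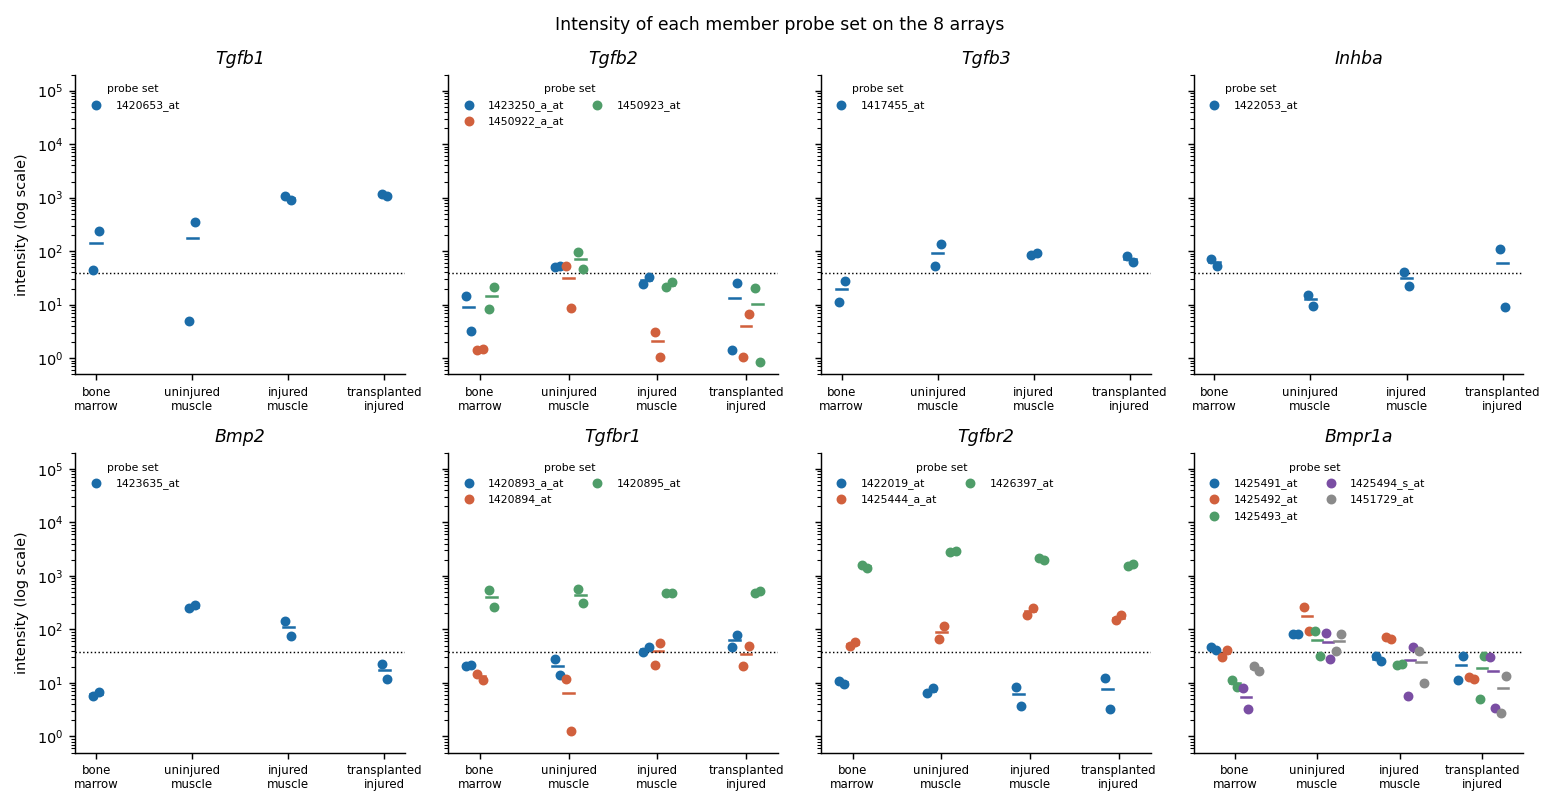
Intensity (log scale) of the 18 member probe sets on the 8 arrays, 2 points per group and probe set, short bars at the group mean and a dotted line at 38.4, the filter value. Bmp2 is highest on the uninjured arrays (247 and 286) and under 38.4 in marrow and transplanted injured muscle, while Tgfb1 is between 917 and 1193 on the 4 injured arrays.

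Among the ligands, Tgfb1 encodes TGF-beta 1, the isoform made by most blood-derived cells. Its probe set 1420653_at read 44 and 237 in marrow, 4.98 and 345 in uninjured muscle, 1090 and 917 in injured muscle and 1193 and 1055 in transplanted injured muscle. All 4 injured arrays were higher than all 4 others, and the 2 arrays of marrow and of uninjured muscle were far apart. The means were 141 ± 137, 175 ± 240, 1003 ± 122 and 1124 ± 97.4 (SD, n = 2). The log2 fold change was 4.16 (SE 1.47, adjusted p = 0.0695) for injured and 4.33 (adjusted p = 0.0541) for transplanted injured over uninjured muscle, and 3.22 (adjusted p = 0.129) and 3.39 (adjusted p = 0.111) over marrow. Between the injured groups it was 0.17 (adjusted p = 0.999), and between uninjured muscle and marrow -0.94 (adjusted p = 0.791). The order of the levels was therefore marrow and uninjured muscle below the injured groups, with no neighbours in that order called apart.

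The low Tgfb1 arrays were those with the highest Gapdh 3' to 5' ratios: 44 at a ratio of 24.4 in marrow, and 4.98 at 46.9 in uninjured muscle. Without these 2 arrays Tgfb1 was higher by a log2 fold change of 1.52 (SE 0.19, adjusted p = 0.000306) in injured and 1.69 (adjusted p = 0.000139) in transplanted injured than in uninjured muscle, and by 2.06 (adjusted p = 3.65e-05) and 2.22 (adjusted p = 2.09e-05) than in marrow. Each group of marrow or uninjured muscle is then 1 array, assumed to vary like the other groups, and the remaining arrays still had ratios of 10.7 and 13.6. Uninjured muscle against marrow turned to 0.53 (adjusted p = 0.147) in that fit. It was 0.22 (adjusted p = 0.963) without marrow replicate 2, 1.70 (adjusted p = 0.235) without uninjured replicate 1, and -3.58 (adjusted p = 0.0144) without uninjured replicate 2, so no direction is given for it. Without uninjured replicate 2 the rise over uninjured muscle was 6.80 (adjusted p = 0.00059) in injured and 6.97 (adjusted p = 0.00042) in transplanted injured muscle. Without uninjured replicate 1 it was 1.52 (SE 0.76, adjusted p = 0.173) and 1.69 (adjusted p = 0.124), not called. Leaving out either uninjured array also brought both comparisons with marrow under the threshold, at an adjusted p of 0.00319 to 0.00455. With array weights all 4 rises were called (adjusted p of 0.0133 to 0.0398), with only the 4 arrays compared both over marrow (adjusted p = 0.0125 and 0.00936), and with median centring that of transplanted injured over uninjured muscle (adjusted p = 0.0361). The macrophage marker sum was highest on the same 4 arrays, at 55963 to 68790, and its part in the Tgfb1 values, like that of the RNA controls, was not tested.

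**Figure D2:**
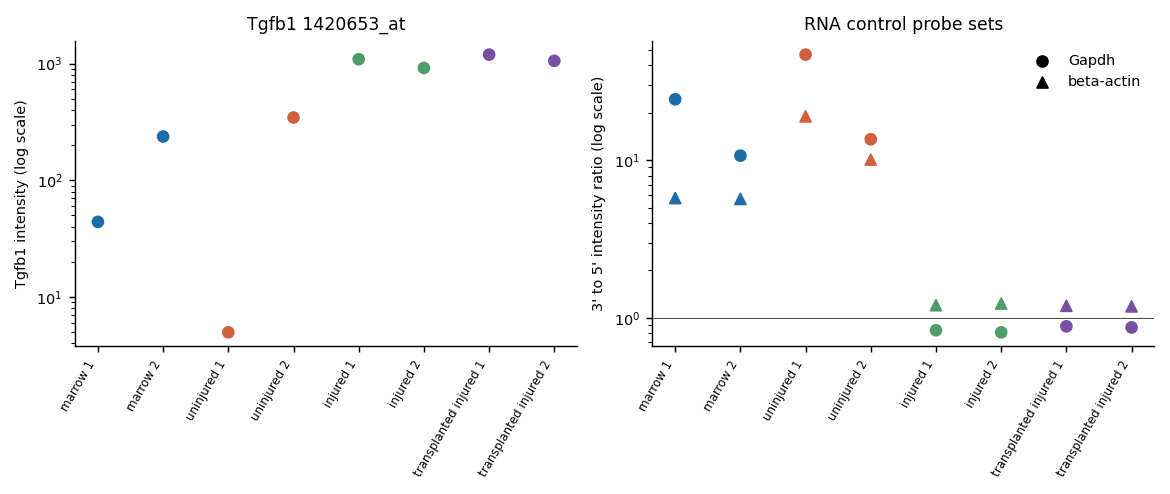
Left, Tgfb1 intensity (log scale) on each of the 8 arrays; right, ratio of the 3' to the 5' control probe set (log scale) of Gapdh (circles) and beta-actin (triangles) on the same arrays, coloured by group. The 4 injured arrays have Tgfb1 between 917 and 1193 and ratios between 0.808 and 1.23, and the array with the lowest Tgfb1, 4.98, has the highest Gapdh ratio, 46.9.

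Tgfb2 encodes TGF-beta 2, an isoform known mainly from mesenchymal and epithelial cells, and its gene lies at chr1:186622787-186709697. The probe set 1423250_a_at (of a kind that matches several transcripts of 1 gene) read 14.7 and 3.17 in marrow, 50.6 and 52.8 in uninjured muscle, 24.4 and 32.7 in injured muscle and 1.41 and 25 in transplanted injured muscle. The probe set 1450923_at read 8.39 and 21.2, 97 and 46.9, 21.3 and 26, and 20.2 and 0.842 in the same order. The third, 1450922_a_at, was not tested, with 53.1 on uninjured replicate 1 and 1.04 to 8.73 on the other 7 arrays. In all 3 the highest value was on an uninjured array, and with the exception of uninjured muscle all arrays were under 38.4. Of the 2 tested, 1450923_at went from 72 ± 35.4 in uninjured muscle to 10.5 ± 13.7 in transplanted injured muscle (SD, n = 2) and its log2 intensity fell by 2.70 (SE 0.81, adjusted p = 0.0365), at least 1.69-fold when the lower group is set at 38.4. It entered the test only through the uninjured arrays, so this difference is given as a description. "At least" has this meaning throughout, with 4 added to both values, and 38.4 marks the filter and says nothing of detection. That call was lost without any 1 of the marrow or injured arrays or transplanted replicate 2 (adjusted p up to 0.174), and the probe set was left out by the filter without either uninjured array. Without a marrow or injured array the difference itself stayed at -2.70. The call was also lost with either other scaling, a pseudocount of 1, array weights and only the 4 arrays compared (adjusted p of 0.0503 to 0.141). The difference for 1423250_a_at, which entered in the same way, was -2.15 (SE 0.85, adjusted p = 0.0844).

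Tgfb3, the gene of TGF-beta 3 at chr12:86056743-86079041, was measured by 1417455_at. It read 11.4 and 27.5 in marrow, 52 and 136 in uninjured muscle, 86.5 and 92.6 in injured muscle and 81.7 and 62.3 in transplanted injured muscle. Both marrow arrays were below all 6 muscle arrays, and the 3 muscle groups overlapped in part. Against marrow (19.5 ± 11.4, SD, n = 2) it rose in injured muscle (89.5 ± 4.35) by a log2 fold change of 2.09 (SE 0.55, adjusted p = 0.0229, at least 2.21-fold) and in transplanted injured muscle (72 ± 13.7) by 1.77 (adjusted p = 0.0397, at least 1.78-fold). In uninjured muscle (93.9 ± 59.3) the difference from marrow was 2.01 (adjusted p = 0.0808), and it was called without uninjured replicate 1 (2.67, adjusted p = 0.0226) and without both arrays with the highest Gapdh ratio (2.15, adjusted p = 0.0115). The first call was lost without marrow replicate 1 or either injured array (adjusted p up to 0.123), and the second without marrow replicate 1, either injured array or either transplanted array (adjusted p up to 0.19) or with no filter (adjusted p = 0.06). Between the muscle groups the log2 differences were -0.31 to 0.08, with adjusted p of 0.767 to 0.999. The fibroblast marker sum was likewise lowest in marrow (145 to 310), and its part in the Tgfb3 values was not tested.

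Bmp2 encodes bone morphogenetic protein 2, a bone-inducing ligand of the Smad1, Smad5 and Smad9 branch, at chr2:133552159-133562896. Its probe set 1423635_at read 5.61 and 6.87 in marrow, 247 and 286 in uninjured muscle, 144 and 74.5 in injured muscle and 23 and 11.8 in transplanted injured muscle. No groups overlapped: uninjured muscle (266 ± 27.4, SD, n = 2) was highest, then injured muscle (109 ± 49), transplanted injured muscle (17.4 ± 7.91) and marrow (6.24 ± 0.895). Against marrow it rose in uninjured muscle by a log2 fold change of 4.72 (SE 0.47, adjusted p = 0.00108, at least 6.36-fold). In injured muscle it was higher than in marrow by 3.40 (adjusted p = 0.00174, at least 2.54-fold). From uninjured to transplanted injured muscle its log2 intensity fell by 3.71 (adjusted p = 0.00155, at least 6.36-fold). These 3 calls held with each of the 8 arrays left out in turn, at an adjusted p of at most 0.0203. Neighbours in the order were not called apart: -1.32 for injured against uninjured muscle (adjusted p = 0.0731), -2.38 for transplanted against untransplanted injured muscle (adjusted p = 0.111) and 1.01 for transplanted injured muscle against marrow (adjusted p = 0.136). The first of these was called with the 25th percentile as pseudocount (-1.22, adjusted p = 0.0375). The second was called with array weights (adjusted p = 0.0112), with only the 4 arrays compared in the fit (adjusted p = 0.0176) and without both arrays with the highest Gapdh ratio (adjusted p = 0.025).

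Several marker lists fell in the same order as Bmp2 over the muscle groups. The mast cell sum went from 7771 to 8237 in uninjured muscle through 2974 to 3346 in injured muscle to 260 to 315 in transplanted injured muscle, and the muscle fibre sum from 3375 to 5217 through 981 to 1028 to 195 to 196. From uninjured to injured muscle 4 of the 8 mast cell markers were called lower and 0 higher (15.1% and 8.77% of all genes). Among these markers Cpa3 had means of 3056 and 824 there, while Mcpt4, at 537 and 481, was not called. The endothelial sum was high in uninjured muscle only, and the fibroblast sum was 4409 to 4712 in transplanted injured muscle against 9197 or more on the other muscle arrays. The part of these cells in the Bmp2 values was not tested.

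**Figure D3:**
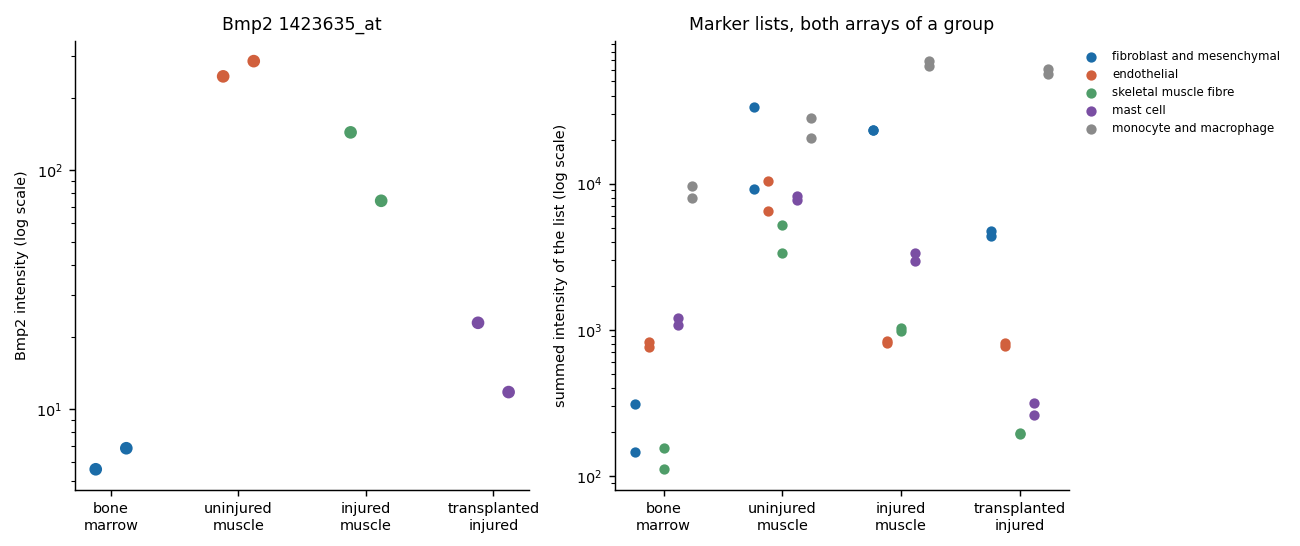
Left, Bmp2 intensity (log scale) on the 2 arrays of each group; right, summed intensity (log scale) of 5 marker lists on the same arrays, 1 colour per list. Bmp2 goes from 247 and 286 in uninjured muscle to 23 and 11.8 in transplanted injured muscle, and the mast cell sum from 7771 to 8237 to between 260 and 315.

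Inhba encodes the beta A subunit of inhibin and activin, which as a dimer is activin A, and lies at chr13:16004256-16031609. The probe set 1422053_at read 71.5 and 53.4 in marrow, 15.3 and 9.57 in uninjured muscle, 40.4 and 22.1 in injured muscle and 110 and 8.96 in transplanted injured muscle. Marrow was above uninjured muscle and injured muscle without overlap, and the transplanted arrays held both the highest and the lowest of the 8 values. The difference between uninjured muscle (12.5 ± 4.08, SD, n = 2) and marrow (62.4 ± 12.9) was -2.02 (SE 0.92, adjusted p = 0.279). In transplanted injured muscle (59.7 ± 71.8) it was 1.25 against uninjured muscle (adjusted p = 0.318) and -0.77 against marrow (adjusted p = 0.55). Without transplanted replicate 1 these became -0.32 (adjusted p = 0.752) and -2.34 (adjusted p = 0.0485), and without transplanted replicate 2 they became 2.82 (adjusted p = 0.0274) and 0.80 (adjusted p = 0.397). No level is therefore given for Inhba in that group beyond its 2 values.

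Among the receptors, Tgfbr1 encodes the type I receptor kinase of the TGF-betas, also called ALK5. Its brightest probe set, 1420895_at, read 543 and 259 in marrow, 577 and 312 in uninjured muscle, 476 and 489 in injured muscle and 486 and 519 in transplanted injured muscle. The means were 401 ± 201, 444 ± 187, 483 ± 9.19 and 503 ± 23.7 (SD, n = 2), the injured arrays lay inside the range of the others, and the log2 differences over the 6 comparisons were 0.06 to 0.42 (SE 0.43, adjusted p of 0.495 to 0.999). Their sign turned with 1 array: without marrow replicate 2 injured and transplanted injured muscle were at -0.17 and -0.11 against marrow, and without uninjured replicate 2 at -0.25 and -0.20 against uninjured muscle. Without both arrays with the highest Gapdh ratio the 4 differences between injured and other groups were 0.62 to 0.94 and all were called (adjusted p of 0.00308 to 0.0277).

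The other Tgfbr1 probe sets were dimmer. 1420893_a_at read 20.9 and 21.5 in marrow, 27.5 and 14.3 in uninjured muscle, 38.1 and 46.6 in injured muscle and 46.1 and 78.6 in transplanted injured muscle, with all 4 injured arrays above the other 4. Its difference was 1.42 (SE 0.48, adjusted p = 0.055) for transplanted injured against uninjured muscle and 1.35 (adjusted p = 0.0646) against marrow. The first was called without uninjured replicate 1 (1.82, adjusted p = 0.0481) and the second without uninjured replicate 2 (1.35, adjusted p = 0.0434). The first was also called with quantile normalization (1.80, adjusted p = 0.029), median centring (1.70, adjusted p = 0.0321), the 25th percentile as pseudocount (adjusted p = 0.0448), no intensity trend (adjusted p = 0.0345) and without both arrays with the highest Gapdh ratio (adjusted p = 0.0438), and the second with no intensity trend (adjusted p = 0.0399). 1420894_at read 15 and 11.3, 11.8 and 1.25, 21.8 and 56.8, and 20.8 and 49.9, again with every injured array above the rest. Its difference from uninjured muscle was 2.12 (SE 0.75, adjusted p = 0.0716) in injured and 2.0 (adjusted p = 0.0746) in transplanted injured muscle, and without uninjured replicate 1 these were 2.92 (adjusted p = 0.0446) and 2.80 (adjusted p = 0.0436). With quantile normalization the latter was 2.27 (adjusted p = 0.0462). The filter value, 38.4, was reached by 1420894_at on 2 arrays and by 1420893_a_at on 3, all of them injured. These probe sets entered the test only through the groups where they are high, so the filter favoured lower values in marrow and uninjured muscle. Their differences from those groups, with the calls under other settings, are therefore given as a description. Over the 8 arrays the 3 probe sets correlated with one another at Pearson's r of 0.53 to 0.89.

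Tgfbr2 encodes the type II receptor that binds TGF-beta first. Its probe set 1426397_at read 1616 and 1416 in marrow, 2762 and 2908 in uninjured muscle, 2126 and 2005 in injured muscle and 1517 and 1639 in transplanted injured muscle. Uninjured muscle (2835 ± 103, SD, n = 2) was above injured muscle (2066 ± 85.8), and both were above transplanted injured muscle (1578 ± 85.8) and marrow (1516 ± 141), which overlapped. It rose from marrow to uninjured muscle by a log2 fold change of 0.90 (SE 0.21, adjusted p = 0.0437, 1.87-fold) and from uninjured to transplanted injured muscle its log2 intensity fell by 0.84 (adjusted p = 0.0182, 1.8-fold). Injured muscle was not called apart from any group, with adjusted p of 0.137 to 0.722. The rise was lost without either marrow array or any of the 4 injured arrays (adjusted p up to 0.154), and the fall without either transplanted array (adjusted p up to 0.113). With median centring they were 0.73 (adjusted p = 0.125) and -0.56 (adjusted p = 0.106). Neither was called without the intensity trend or when the fit held just the 4 arrays compared, nor was the rise with no filter or with array weights (adjusted p of 0.0595 to 0.277). Without both arrays with the highest Gapdh ratio injured muscle was called below uninjured muscle (-0.49, adjusted p = 0.0296) and above marrow (0.54, adjusted p = 0.0169).

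The probe set 1425444_a_at of the same gene had another pattern. It read 48.9 and 57.7 in marrow, 66 and 115 in uninjured muscle, 188 and 248 in injured muscle and 148 and 185 in transplanted injured muscle, so that all 4 injured arrays were above the other 4. From uninjured muscle (90.7 ± 34.9, SD, n = 2) to injured muscle (218 ± 42.9) it rose by a log2 fold change of 1.27 (SE 0.39, adjusted p = 0.0457, 2.41-fold). Against marrow (53.3 ± 6.21) it rose by 1.94 in injured muscle (adjusted p = 0.00769, 3.85-fold) and by 1.57 in transplanted injured muscle (166 ± 26.5, adjusted p = 0.0172, 2.96-fold). The first call held only without uninjured replicate 2 among the 8 arrays left out in turn, and was lost without each of the others (adjusted p up to 0.219), and with no filter, array weights and only the 4 arrays compared (adjusted p of 0.0663 to 0.119). The second was lost without injured replicate 2 (adjusted p = 0.0669), and the third without either marrow array or either transplanted array (adjusted p up to 0.111). In transplanted injured against uninjured muscle it differed by 0.89 (adjusted p = 0.112), by 1.27 without uninjured replicate 2 (adjusted p = 0.0275) and by 1.17 with median centring (adjusted p = 0.0405), where 1426397_at fell in the fit on the authors' scale. The 2 probe sets correlated at r = 0.09 over the 8 arrays, and in the main fit on all 8 no comparison called them in opposite directions. Without uninjured replicate 2, which leaves 1 uninjured array, transplanted injured against uninjured muscle called 1425444_a_at higher and 1426397_at lower. Which stretch of the transcript each reads is not given in the sources used here. The third probe set, 1422019_at, was between 3.24 and 12.5 on all 8 arrays and was not tested.

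Bmpr1a encodes a type I receptor of bone morphogenetic proteins, also called ALK3, at chr14:34411061-34503336. The probe set 1425492_at read 30.7 and 41.2 in marrow, 258 and 93.1 in uninjured muscle, 71.1 and 65 in injured muscle and 13 and 11.8 in transplanted injured muscle. No groups overlapped, and the order was uninjured muscle (176 ± 117, SD, n = 2), injured muscle (68 ± 4.31), marrow (35.9 ± 7.42) and transplanted injured muscle (12.4 ± 0.794). From uninjured to transplanted injured muscle its log2 intensity fell by 3.28 (SE 0.52, adjusted p = 0.00321, at least 3.77-fold), a call that held with each array left out in turn (adjusted p of at most 0.0264). Neighbours in that order were not called: -1.15 for injured against uninjured muscle (adjusted p = 0.132), 0.86 for injured muscle against marrow (adjusted p = 0.235) and -1.27 for transplanted injured muscle against marrow (adjusted p = 0.0931). Against marrow the difference of uninjured muscle was 2.01 (adjusted p = 0.0642), called without uninjured replicate 2 (2.73, adjusted p = 0.00657), and the first and the third of those neighbours were then called too (-1.87, adjusted p = 0.019, and -1.27, adjusted p = 0.0318). The third was called without uninjured replicate 1 too (adjusted p = 0.042). Transplanted against untransplanted injured muscle was -2.14 (adjusted p = 0.183) and was called without uninjured replicate 2 (adjusted p = 0.0442), with array weights (adjusted p = 0.00716), with only the 4 arrays compared (adjusted p = 0.0287) and without both arrays with the highest Gapdh ratio (adjusted p = 0.0296).

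For Bmpr1a 2 more probe sets fell between the same groups. 1425491_at read 47.8 and 42.1 in marrow, 82 and 82.6 in uninjured muscle, 31.8 and 25.4 in injured muscle and 11.5 and 31.3 in transplanted injured muscle, and fell by 1.88 (SE 0.49, adjusted p = 0.0219, at least 2.04-fold). It was called below uninjured muscle in injured muscle too with the 25th percentile as pseudocount (-1.13, adjusted p = 0.0401) and without transplanted replicate 1 (-1.41, adjusted p = 0.0496). 1451729_at read 20.8 and 17, 38.9 and 83.3, 40.3 and 9.99, and 2.72 and 13.3 in the same order, and fell by 2.50 (SE 0.75, adjusted p = 0.0365, at least 1.44-fold). In both the uninjured arrays were above the transplanted ones. The first call was lost without uninjured replicate 1 or transplanted replicate 1 (adjusted p up to 0.121) and the second without either marrow array, uninjured replicate 2 or transplanted replicate 1 (adjusted p up to 0.184). Both were lost with array weights, with only the 4 arrays compared and without both arrays with the highest Gapdh ratio (adjusted p of 0.0619 to 0.152), and the second with either other scaling (adjusted p = 0.0635 and 0.0521). 1425494_s_at, of a kind that can match more than 1 gene of a family, read 7.9 and 3.19, 86.1 and 28.5, 5.6 and 47, and 30.1 and 3.34, with a difference of -1.77 (SE 1.04, adjusted p = 0.217). 1425493_at, not tested, was highest on the uninjured arrays, 95 and 32, against 8.42 to 11.2 in marrow, 22 and 23 in injured muscle and 4.92 and 32.5 in transplanted injured muscle. The 5 probe sets correlated with one another at r of 0.06 to 0.87.

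**Figure D4:**
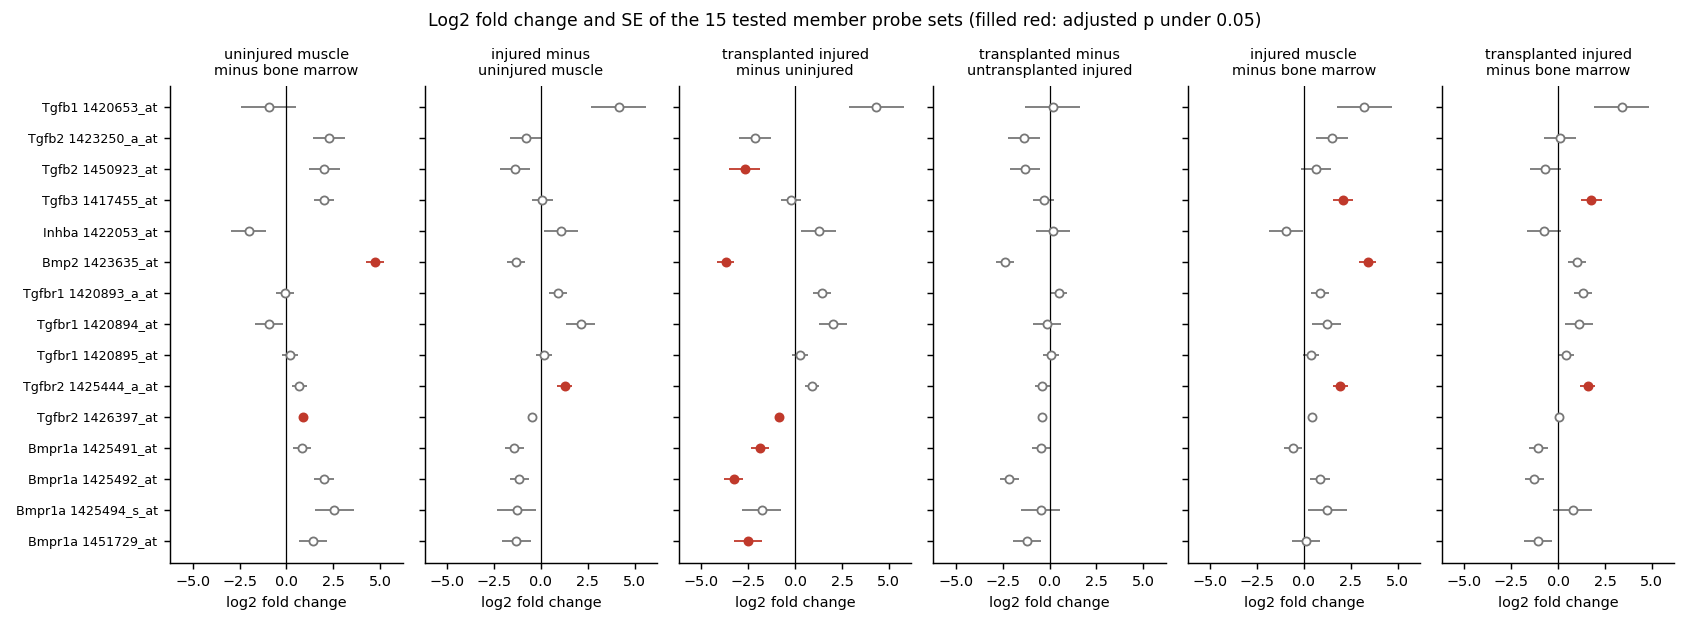
Log2 fold change with SE (horizontal bars) of the 15 tested member probe sets in the 6 comparisons; filled red points have a limma adjusted p under 0.05. Bmp2 reaches 4.72 for uninjured muscle against marrow and -3.71 for transplanted injured against uninjured muscle, where the 3 called Bmpr1a probe sets also lie below 0. Of these 3, 1451729_at would not have passed the filter without the uninjured arrays.

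The other genes of the pathway were described from 6 lists with 111 genes, of which 95 had a probe set and 76 passed the filter. A gene stands for its brightest probe set, and 9506 genes were tested. Of the 76, 17 rose and 1 fell between uninjured muscle and marrow (5.85% and 1.4% of all genes), and 9 rose and 13 fell between injured and uninjured muscle (8.77% and 15.1%). In transplanted injured against uninjured muscle 7 rose and 23 fell (10.5% and 20.8%). In transplanted injured against injured muscle 0 rose and 1 fell (0.0421% and 0.274%). Against marrow 26 rose and 8 fell in injured muscle (12.6% and 17.2%), and 21 rose and 8 fell in transplanted injured muscle (12% and 19.5%). The medians over the 76 were 0.89, -0.31, -0.83, -0.28, 0.92 and 0.38, and those of all genes -0.06, -0.25, -0.31, -0.00, -0.27 and -0.32. Single arrays moved these counts, and the calls over all probe sets moved in the same direction in the fits named here. Injured against uninjured muscle had 7 and 8 calls without injured replicate 1 and 2, against 22. Transplanted injured against uninjured muscle had 18 and 17 without transplanted replicate 1 and 2, against 30. Injured muscle against marrow had 20 without injured replicate 1, against 34, and transplanted injured muscle against marrow had 17 without transplanted replicate 1, against 29. The single call between the injured groups became 7 without either uninjured array and 0 without any other array. Without both arrays with the highest Gapdh ratio uninjured muscle against marrow had 32 calls and transplanted injured against injured muscle 20.

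Of the other ligands 13 of 23 were tested. In uninjured muscle against marrow 0 rose and 1 fell (5.85% and 1.4% of all genes). In injured against uninjured muscle 1 rose and 3 fell (8.77% and 15.1%). In transplanted injured against uninjured muscle 1 rose and 5 fell (10.5% and 20.8%), with a list median of -1.48 against -0.31 for all genes. Gdf3, a Nodal-type ligand, had means of 43, 51.5, 131 and 338 in marrow, uninjured, injured and transplanted injured muscle. It rose in transplanted injured muscle by a log2 fold change of 2.61 over uninjured muscle (SE 0.37, adjusted p = 0.00219) and 2.86 over marrow (adjusted p = 0.00113). Lefty1, which encodes an inhibitor of Nodal signalling, went the other way, with means of 523, 151, 80 and 18.6. It fell by 2.87 from uninjured to transplanted injured muscle (adjusted p = 0.00241), and against marrow it fell by 4.65 (adjusted p = 0.000255). These 4 calls held with each array left out in turn. Bmp6, a ligand of the same branch as Bmp2, had means of 44.3, 144, 26.4 and 17.1 and fell by 2.87 from uninjured to transplanted injured muscle (adjusted p = 0.0117), a call lost without uninjured replicate 1 or transplanted replicate 1 (adjusted p up to 0.0712).

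Among the other receptors and coreceptors 8 of 15 were tested, and against marrow 3 rose in uninjured muscle and 2 in each injured group, with 0 lower. Of all genes 5.85% rose in uninjured muscle, 12.6% in injured and 12% in transplanted injured muscle, and 1.4%, 17.2% and 19.5% fell. Nrp1, a coreceptor that binds TGF-beta as well as VEGF and semaphorins, was at 439 in marrow, 2451 in uninjured muscle, 1207 in injured muscle and 1108 in transplanted injured muscle. It rose by 2.47 from marrow to uninjured muscle (SE 0.24, adjusted p = 0.000895) and fell by 1.02 (adjusted p = 0.0175) and 1.15 (adjusted p = 0.00909) from there to injured and transplanted injured muscle. Those falls were lost without either injured array (adjusted p up to 0.117) and without transplanted replicate 2 (adjusted p = 0.0789), and the rise held throughout. Nrp1 is also carried by endothelial cells, whose marker sum was 6531 to 10387 in uninjured muscle and 838 or less elsewhere, and the part of those cells was not tested.

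Of the genes of the latent complex and its activators 9 of 14 were tested. In injured against uninjured muscle 3 rose and 2 fell (8.77% and 15.1% of all genes). Thbs1, which encodes thrombospondin 1, an activator of latent TGF-beta and a platelet granule protein, had means of 67.2, 198, 2049 and 3087. It rose by a log2 fold change of 3.58 in injured (SE 0.74, adjusted p = 0.012) and 4.13 in transplanted injured muscle (adjusted p = 0.00539) over uninjured muscle, the first of these not without either injured array (adjusted p up to 0.075). Mmp14, a membrane protease that can free latent TGF-beta, had means of 39.4, 150, 767 and 349 and rose by 2.40 in injured over uninjured muscle (adjusted p = 0.00553). Ltbp2, a matrix protein of the latent TGF-beta binding family, had means of 12.7, 25, 204 and 48.3 and rose by 2.84 in the same comparison (adjusted p = 0.0053). Mmp9, a protease of neutrophils and macrophages that can also activate TGF-beta, fell from 1051 in marrow and 780 in uninjured muscle to 125 in injured and 76.9 in transplanted injured muscle, by 2.60 and 3.30 against uninjured muscle (adjusted p = 0.00199 and 0.000668). The neutrophil marker sum was 17123 or more in marrow and uninjured muscle and at most 711 on the injured arrays. The 8 megakaryocyte and platelet markers summed to 643 to 1263 in marrow and 5902 to 8179 in uninjured muscle, and with injury to 8281 to 9934. Most of that sum in the muscle groups was 1 gene, Pf4, with means of 476, 6484, 8585 and 8576. Over the 7 tested markers the median log2 fold change from uninjured muscle was -0.62 in injured and -0.97 in transplanted injured muscle. In both comparisons 0 of the 7 were called. The part of either cell type in Mmp9 or Thbs1 was not tested.

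The extracellular inhibitors had 10 of 15 genes tested, and 5 rose and 0 fell against marrow in each of the 3 muscle groups, with list medians of 3.64, 2.6 and 1.53 in uninjured, injured and transplanted injured muscle. Of all genes 5.85%, 12.6% and 12% rose and 1.4%, 17.2% and 19.5% fell in that order, with medians of -0.06, -0.27 and -0.32. Fstl1, a secreted follistatin-like protein, had means of 4.1, 1015, 2064 and 305 and rose by 6.64, 8.10 and 5.34 (adjusted p = 0.00151, 0.000252 and 0.00136). Bgn, which encodes biglycan, a matrix proteoglycan that binds TGF-beta, had means of 16.8, 654, 2838 and 488 and rose by 5.06, 7.18 and 4.59 (adjusted p = 0.000617, 5.9e-05 and 0.000335). Htra1, a secreted protease, was at 497 in uninjured and 40.3 in transplanted injured muscle and fell by 3.25 (adjusted p = 0.00529). These calls held with each array left out in turn. These genes are also made by fibroblasts, and Dcn of this list is 1 of the 8 fibroblast markers, whose sum was 145 to 310 in marrow and 4409 to 33188 on the muscle arrays. The part of such cells in the list was not tested.

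Among Smads and intracellular regulators 19 of 24 genes were tested. In injured against uninjured muscle 2 rose and 4 fell (8.77% and 15.1% of all genes). In transplanted injured against uninjured muscle 2 rose and 5 fell (10.5% and 20.8%). Smad1, a transducer of bone morphogenetic proteins, had means of 426, 668, 171 and 189 and fell by 1.84 (adjusted p = 0.0185) and 1.70 (adjusted p = 0.0207), calls that were lost without either array of the injured group compared (adjusted p up to 0.116). Fkbp1a, which encodes a protein that binds type I receptors and holds them inactive, had means of 1902, 3135, 1055 and 705 and fell by 1.56 (SE 0.23, adjusted p = 0.00361) and 2.14 (adjusted p = 0.000856), calls that held with each array left out. Smad7, the inhibitory Smad that TGF-beta induces, had means of 455, 371, 89.8 and 93.6, and from marrow it fell by 2.24 in injured muscle (adjusted p = 0.00944) and fell by 2.19 in transplanted injured muscle (adjusted p = 0.00988). The first of these was lost without marrow replicate 2 or either injured array and the second without marrow replicate 2 or transplanted replicate 1 (adjusted p up to 0.0733). Ski, a corepressor of Smads, had means of 105, 319, 446 and 580 and rose over marrow by 2.04 in injured (adjusted p = 0.00381) and 2.44 in transplanted injured muscle (adjusted p = 0.0017).

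The list of target genes, which TGF-beta or bone morphogenetic proteins are known to induce in one cell type or another, had 17 of 20 genes tested. In uninjured muscle 7 rose and 0 fell against marrow (5.85% and 1.4% of all genes). Against marrow 10 rose and 1 fell in injured muscle (12.6% and 17.2%), and 5 rose and 1 fell in transplanted injured muscle (12% and 19.5%). Between injured and uninjured muscle 2 rose and 2 fell (8.77% and 15.1% of all genes). Between transplanted injured and uninjured muscle 2 rose and 6 fell (10.5% and 20.8%). The members that moved did not share 1 direction after injury. Tgfbi, which encodes a secreted matrix protein that macrophages also make, had means of 722, 4595, 9881 and 11116 and rose by 1.11 from uninjured to injured muscle (SE 0.20, adjusted p = 0.00696), a call lost without either injured array (adjusted p up to 0.0568). Id2, a transcriptional inhibitor that bone morphogenetic proteins induce, had means of 159, 143, 970 and 1238 and rose by 2.85 in injured over uninjured muscle (SE 0.44, adjusted p = 0.00445). Acta2, the smooth muscle actin of vessel walls and myofibroblasts, had means of 147, 3277, 565 and 185 and fell from uninjured muscle by 2.53 in injured (SE 0.27, adjusted p = 0.00137) and 4.12 in transplanted injured muscle (adjusted p = 0.000235). Tsc22d1, a leucine zipper protein first described as TGF-beta-stimulated, had means of 5723, 4873, 1354 and 490 and fell by 1.83 (adjusted p = 0.00232) and 3.29 (adjusted p = 0.000297). Fn1, the gene of fibronectin, was the single pathway gene called between the injured groups, with 3829 in injured and 987 in transplanted injured muscle (-1.95, SE 0.23, adjusted p = 0.0291). That call held without either uninjured array and was lost without any of the other 6 (adjusted p up to 0.444). The fibroblast sum was 23145 to 23393 and 4409 to 4712 in these 2 groups, and its part in the Fn1 difference was not tested. Over all 6 lists the naming rule gave 96 calls, and 56 of them held with each of the 8 arrays left out in turn. The rule takes the calls with the smallest p, and no such share was taken over all genes, so it says nothing particular to the pathway.

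**Figure D5:**
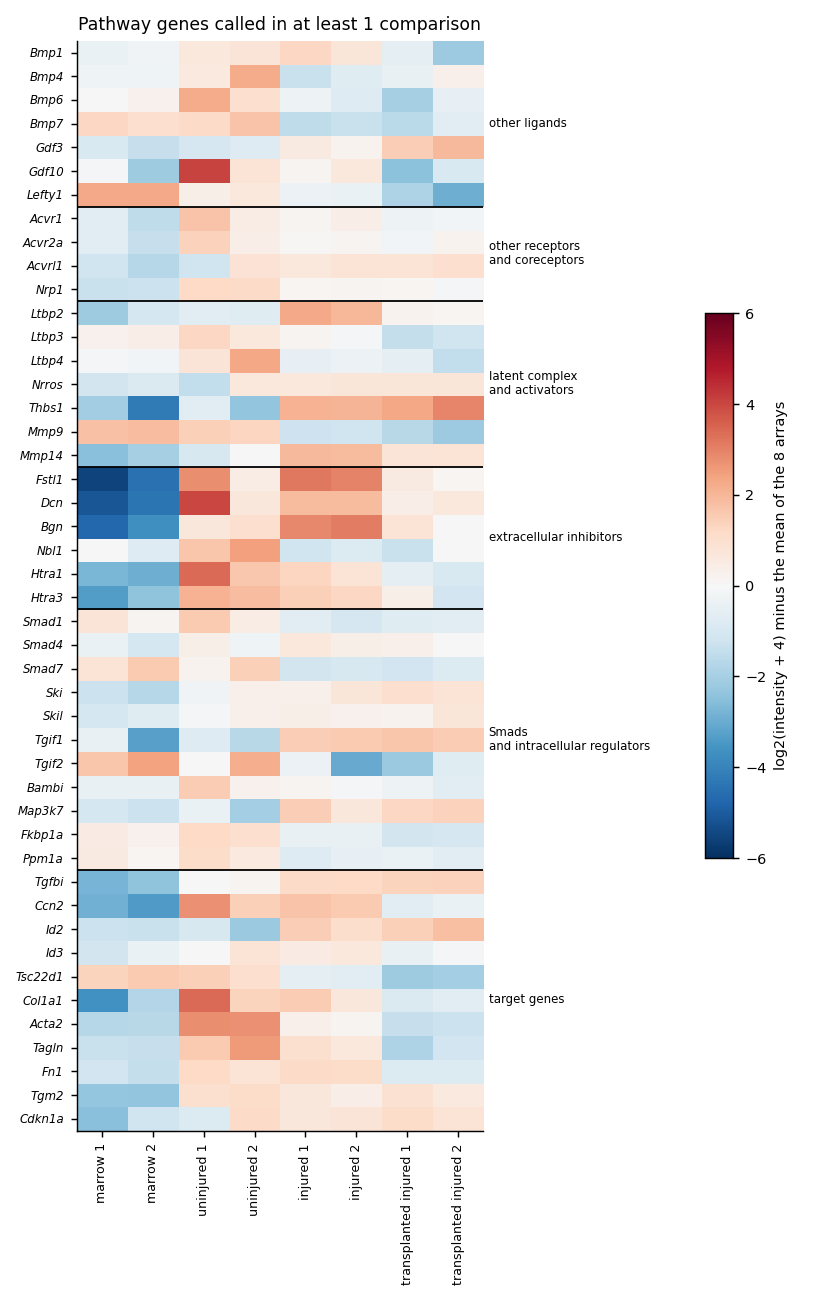
Log2(intensity + 4) minus the mean of the 8 arrays (red above, blue below) for the 46 genes of the 6 pathway lists with a limma adjusted p under 0.05 in at least 1 comparison; columns are arrays and lines divide the lists. The extracellular inhibitors Fstl1, Dcn, Bgn, Htra1 and Htra3 are lowest on both marrow arrays, and Tgfbi and Id2 are high on the 4 injured arrays.

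The genes with patterns most like each member were taken by Pearson's r of log2 values over the 8 arrays, which share libraries and scaling, and r is given as a description. Bmp2 was closest to Cttn (r = 0.9841), Copz2 (0.9812) and Cma1 (0.9791), and Cma1, the mast cell chymase, is 1 of the 8 mast cell markers, with means of 38.5, 2330, 1380 and 79.6. For Tgfb1 the closest were Fau (0.9956), Ppp4c (0.9934) and Inpp5d (0.9917). Tgfb3 was nearest to Camk1 (0.9737), Dhrs3 (0.9730) and Slc11a2 (0.9716). The brightest probe set of Tgfbr2 went with Lmcd1 (0.9863), Abcb1b (0.9862) and Aplnr (0.9849), that of Tgfbr1 with Clpx (0.9862), Pnpt1 (0.9823) and Srsf11 (0.9801), and that of Bmpr1a with Irs1 (0.9918), Rcan2 (0.9907) and Etl4 (0.9746). For the brightest Tgfb2 probe set the closest were Nr5a2 (0.9898), Edn1 (0.9645) and Eogt (0.9504), and for Inhba, whose neighbours were least like it, Dhodh (0.9065), Nudt21 (0.8587) and Rasa3 (0.8490). Among the brightest probe sets of the members themselves r was highest between Bmp2 and Tgfbr2 (0.942), then between Tgfb2 and Bmpr1a (0.858), Tgfbr2 and Bmpr1a (0.823) and Bmp2 and Bmpr1a (0.783), and lowest between Tgfb1 and Bmpr1a (-0.609). For Tgfbr2 this is 1426397_at, with which 1425444_a_at of the same gene correlated at only 0.09.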

How the data were processed

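RNA of 8 samples was measured on 1 array each. The deposited values are intensities on a linear scale, 1 per probe set. In the deposited table the mean without the lowest and highest 2% of probe sets is 250.09 to 250.12 on every array, so the authors had scaled the arrays to a common level. GCOS is named in the submitters' processing notes, without version or role, and how probes were summarised is not given in the sources used here. Of 22690 probe sets 64 are controls. The annotation gave 1 gene for 20380, several for 691 and none for 1555, and 20351 symbols were updated by gene identifier.

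Anything below 1 was raised to 1 before log2(value + 4) was computed, 4 being about the 10th percentile, which understates changes of low probe sets. Probe sets with at least 2 of 8 arrays at or above 38.4 were tested (16289). limma 3.58.1 under R 4.3.3 fitted 1 mean per group on all 8 arrays with an intensity trend (4 residual degrees of freedom, median prior 4.07), two-sided, with Benjamini-Hochberg adjustment per comparison. Precision is limited by how few arrays there are (median SE 0.45). The fit was tried on simulated data with an equal spread for all probe sets and arrays, which checks the code and says nothing of these arrays. Named genes were all member probe sets, up to 4 called genes per list and comparison with the smallest p, and the 3 genes most like each member. Alternatives were 2 scalings, 2 pseudocounts, 2 filters, no trend, array weights, only the 4 arrays compared, a replicate block, the mean of a gene's probe sets, and each array left out in turn, where a lone array was assumed to vary like the other groups. The members and lists were chosen with earlier results of these data known.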

Additional observations from a re-analysis of the deposited data

How the results depend on the processing

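The numbers of called member probe sets were 2, 1, 6, 0, 3 and 2 in the order uninjured muscle against marrow, injured against uninjured, transplanted injured against uninjured, transplanted injured against injured, injured against marrow and transplanted injured against marrow. Leaving out 1 array gave 1 to 4, 0 to 3, 3 to 6, 0 to 1, 1 to 4 and 0 to 5. The first was 1 with median centring, no filter, no intensity trend, array weights and only the 4 arrays compared. The second was 3 with the 25th percentile as pseudocount, and 0 with no filter and with only the 4 arrays. The third was 2 with the stricter filter and with only the 4 arrays, that between the injured groups 2 with array weights and with only the 4 arrays, and the last 1 with no filter, 1 with the stricter filter and 4 with array weights. Without both arrays with the highest Gapdh ratio (added after seeing the data) the counts were 3, 4, 6, 2, 6 and 4. The causes were not tested. The 3 calls of Bmp2 held under all 19 alternatives, and the call of Bmpr1a 1425492_at in all 18 that gave a value. With 1 array left out, values that turned sign ranged from -3.58 to 1.70 for Tgfb1 in uninjured muscle against marrow (0.22 without marrow replicate 2, 1.70 without uninjured replicate 1, and 0.53 without both arrays with the highest Gapdh ratio). For Inhba in transplanted injured muscle they ranged from -0.32 to 2.82 against uninjured muscle and from -2.34 to 0.80 against marrow. For Tgfbr1 1420895_at they ranged from -0.25 to 0.62 (injured) and -0.20 to 0.68 (transplanted injured) against uninjured muscle, and from -0.17 to 0.89 and -0.11 to 0.94 against marrow. Median centring moved the median of all probe sets to -0.21, 0.00, 0.09, 0.14, -0.18 and -0.08 and turned no direction among these results.

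Among the pathway genes the count of 1 between the injured groups was 0 with quantile normalization, median centring, no intensity trend and the replicate block, 2 with the 25th percentile as pseudocount, 3 with the mean of a gene's probe sets, 15 with array weights and 21 with only the 4 arrays compared. Over all probe sets the calls between the injured groups were 170 higher and 641 lower with array weights, against 4 and 37. With only the 4 arrays they were 369 and 756. For the pathway genes, injured and transplanted injured against uninjured muscle had 13 and 19 calls with only the 4 arrays, against 22 and 30. Over all probe sets these comparisons then had 1044 higher and 1027 lower, and 1362 and 1649. In the main fit they had 1973 and 2262, and 2268 and 3015.

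With the replicate number as a block the counts were 1 in uninjured muscle against marrow and 2 in injured against uninjured muscle, and the others stayed within 1.5 times. Under it Tgfb1 was called in both comparisons with uninjured muscle (adjusted p = 0.0408 and 0.0303) and the rise of Tgfbr2 1426397_at over marrow was lost (adjusted p = 0.0694). Deviations of arrays with the same number correlated at 0.313 between marrow and uninjured muscle and at -0.0317 to 0.0031 in the other 5 pairs. Whether arrays with the same number were processed together is not given in the sources used here, and these values do not settle it. The values are signal with no background measure, and 38.4 sets only which probe sets were tested.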
